A study of Drosophila melanogaster with 6 samples.

Results

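Cytosolic ribosomal proteins are the protein components of the large and small subunits of the ribosome. Their genes were chosen by symbol alone, as those starting RpL or RpS followed by a digit or P, together with sta, which encodes the small subunit protein SA. There were 93 such genes among the 17806 named genes of the count table, 84 of which had enough reads to be tested, and the other 9 held at most 6 reads in any library. By symbol, 50 of the tested genes belong to the large subunit and 34 to the small. The pattern says nothing about protein function, and RpL24-like and RpLP0-like, which it also takes in, resemble factors known in yeast to hold a place in the immature large subunit before the true protein enters.

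The libraries came from GFP-positive intestinal progenitors, the stem cells of the gut and their undifferentiated daughters, sorted from adult female Drosophila melanogaster. The guts of 100 females were pooled for every library, after 6 days at 29 °C. Patr1 and esgTS, the genotypes compared, had 3 libraries apiece, made from total RNA after removal of rRNA. Neither name is explained in the labels, which give no allele, no driver of the GFP and nothing on what the flies of both genotypes share. The stated aim was to identify RNAs under the control of P-bodies, the cytoplasmic bodies where untranslated mRNAs gather with the decapping machinery.

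In the fly, ribosomal protein genes are transcribed at very high rates from a special pyrimidine-rich start site, and losing a single copy of many of them gives the slow-growing Minute phenotype. Their mRNAs start with a pyrimidine tract that couples their translation to the kinase TOR.

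Library totals were 2035676 to 2866705 reads in Patr1 and 2627978 to 2958607 in esgTS. Patr-1 itself, which encodes a decapping activator, was at 35.9 ± 3.38 CPM in Patr1 and 220.1 ± 12.2 CPM in esgTS (mean ± SD, n = 3 each). The progenitor factor gene esg was at 644.9 ± 82.7 CPM in Patr1 and 657.2 ± 41.9 CPM in esgTS. The 6 progenitor marker genes summed to 3932.5 to 4452 CPM in Patr1 and 3552 to 3777 CPM in esgTS. Of the marker sums of other cell types, all but the enteroendocrine one lay higher in every Patr1 library than in any esgTS library. The 6 enterocyte genes summed to 1308 to 1362 CPM in Patr1 and 716.8 to 796.5 CPM in esgTS, and the 6 visceral muscle genes to 325.5 to 422.4 CPM in Patr1 and 130.5 to 136.0 CPM in esgTS. The 6 hemocyte and fat body genes summed to 101.9 to 170.4 CPM in Patr1 and 5.18 to 6.13 CPM in esgTS, with Lsp2 and NimC1 at 0 reads throughout. The 6 germline genes summed to 286.5 to 811.5 CPM in Patr1 and 157.4 to 207.9 CPM in esgTS. The 6 enteroendocrine genes summed to 121.4 to 234.5 CPM in Patr1 and 183.0 to 207.4 CPM in esgTS. The part of these other cells in the results below was not tested.

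The ribosomal protein genes held a small share of all reads but were among the most densely covered genes of the table. In Patr1 replicates 1, 2 and 3 they took 2.45%, 1.92% and 1.95% of all reads, against 2.40%, 2.09% and 2.44% in the esgTS replicates. The ranges of the genotypes overlapped, with means of 2.11% ± 0.296 in Patr1 and 2.31% ± 0.190 in esgTS (SD, n = 3 each). In such bulk libraries fewer cells of a type and less of an mRNA per cell cannot be told apart. Counted per base of gene length, the tested members had a median of 0.746 reads per base over the 6 libraries, from 0.193 to 1.37. The median of the other 7843 tested genes was 0.0760. More than 0.5 reads per base were reached by 85.7% of the members and by 1.82% of other tested genes. Among 16721 genes of at least 200 bases, the highest value in any library was 1.60 reads per base, in mt:CoIII. Of the 50 densest genes, 26 were ribosomal protein genes and 8 lay on the mitochondrial genome, and the others included eEF1alpha1 and Hsc70-4.

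**Figure D1:**
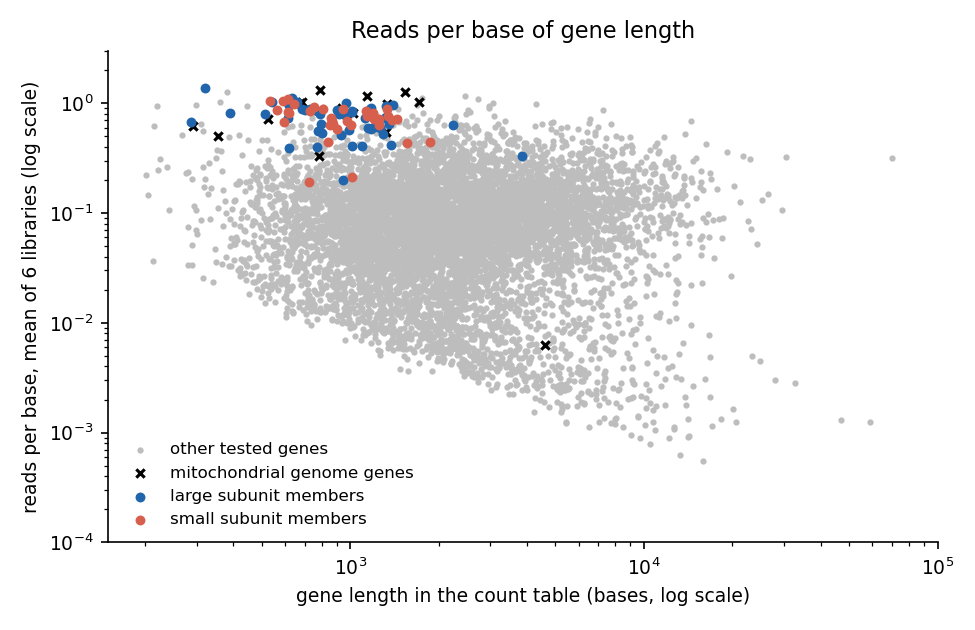
Reads per base of gene length (mean of 6 libraries, log scale) against gene length in bases (log scale) for each tested gene of at least 200 bases, with the large and small subunit members in colour and mitochondrial genome genes as crosses. The members lie between 0.193 and 1.37 reads per base, at the upper edge of the plot.

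The levels per length of the members lay in a narrow range. On the scale of reads per kilobase of gene length, scaled to library size as CPM is (RPKM), the median member was at 287.5, and 2.40-fold separated the 10th percentile (162.7) from the 90th (389.9). The highest was RpL41, the smallest ribosomal protein, at 529.9 RPKM. RpS18, of the small subunit head, was the highest of its subunit at 417.5 RPKM. The lowest tested members were RpS15Ab at 74.4, RpLP0-like at 75.6 and RpS9 at 81.8 RPKM, with 50.3% of the exon bases of RpS9 under an antisense RNA gene (asRNA:CR45874). The large subunit had a median of 295.8 RPKM and the small subunit 278.4, beside ranges of 75.6 to 529.9 within the large and 74.4 to 417.5 within the small subunit. In each library the reads of the large subunit were 1.46 to 1.49 times those of the small, at 1.48 ± 0.0193 in Patr1 and 1.48 ± 0.0102 in esgTS (SD, n = 3 each). No gene of at least 200 bases exceeded 1.60 reads per base, and the treatment of duplicate reads is not stated. Whether a limit on reads per base narrows the range of these levels, or of the fold changes that follow, was not tested.

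Few members differed between the genotypes. Of 84 tested, 0 rose and 4 fell in Patr1 (quasi-likelihood test of edgeR, with a Benjamini-Hochberg adjusted p under 0.05), and 0 were higher and 6 lower at an unadjusted p under 0.05, where 26.7% of all tested genes were lower. Among all 7927 tested genes 25.5% rose and 23.9% fell at the adjusted threshold. The members' log2 fold changes (Patr1 over esgTS) ran from -0.41 to 0.12 with a median of -0.096, beside a median of 0.010 over all tested genes. The median absolute log2 change was 0.097 among members and 0.35 among all tested genes. Most tested genes were far less densely covered than the members, and genes of like coverage are given further below. The fold change was below 0 for 71 of 84 members, against 49.4% of all tested genes, and the groups did not overlap, lower in Patr1, for 3 members, against 27.7%. Leaving out Patr1 replicate 2 brought the count below 0 to 44 of 84, and leaving out esgTS replicate 3 to 54. It was 83 when Patr1 replicate 1 was left out, and also 83 when esgTS replicate 2 was.

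Counted by symbol, the subunits gave similar numbers of calls, but both calls of the large subunit were RpL24-like and RpLP0-like, which resemble assembly factors. No other large subunit gene was called. In the large subunit 0 of 50 rose and 2 fell, with a median log2 fold change of -0.095, and in the small subunit 0 of 34 rose and 2 fell, with a median of -0.11. The middle of the distribution ran from -0.14 to -0.023 in the large subunit and from -0.16 to -0.028 in the small (25th to 75th percentile). With 1 library left out, the large subunit's median ran from -0.21 without Patr1 replicate 1 to 0.0044 without Patr1 replicate 2, where its sign turned. The small subunit's median ran from -0.22 to -0.032 with the same libraries left out.

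**Figure D2:**
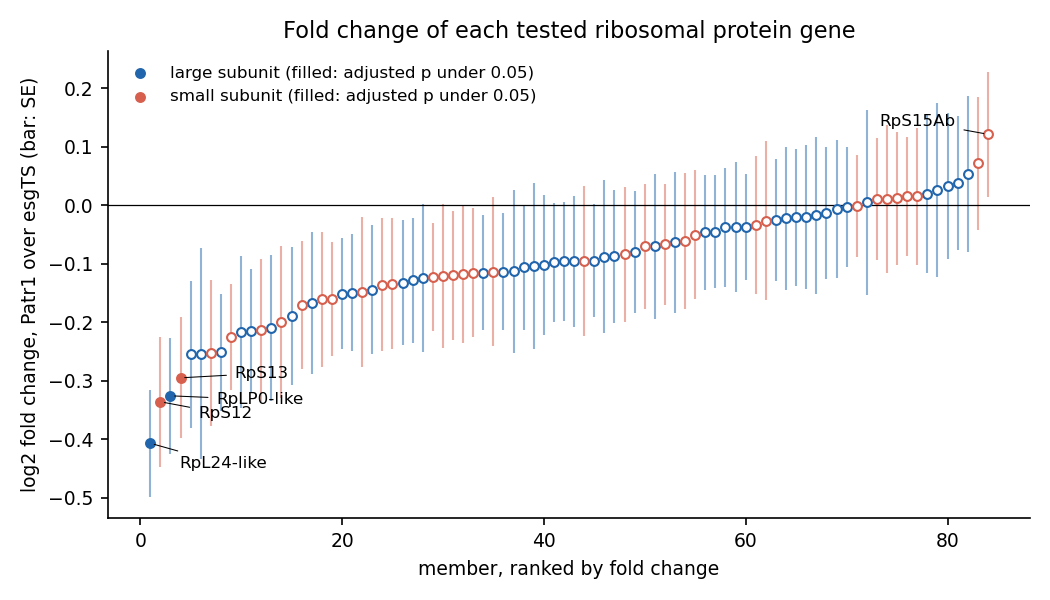
Log2 fold change (Patr1 over esgTS) of the 84 tested members in rank order, with the standard error as a bar, coloured by subunit and filled where the edgeR adjusted p is under 0.05. The 4 filled points are the lowest and RpS15Ab is the highest at 0.12, and 71 of 84 points lie below 0, a count that was 44 without Patr1 replicate 2.

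RpL24-like had the largest fall. Its protein is related to the large subunit protein RpL24, and its yeast counterpart Rlp24 is an assembly factor of the nucleolus. It was at 99.9, 101.3 and 99.8 CPM in Patr1 replicates 1, 2 and 3, against 131.8, 120.2 and 147.8 CPM in the esgTS replicates. The groups did not overlap. Its log2 fold change was -0.41 ± 0.091 (SE, edgeR adjusted p = 0.0029), and it passed the same threshold with each library left out in turn.

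RpLP0-like is related to the stalk base protein RpLP0, and its yeast counterpart Mrt4 also acts in large subunit assembly. It had 58.0, 61.6 and 71.1 CPM in the Patr1 libraries, against 79.7, 78.7 and 80.8 CPM in esgTS, and the groups did not overlap. That is a log2 fold change of -0.33 ± 0.099 (SE, edgeR adjusted p = 0.0166). The adjusted p was 0.0530 without Patr1 replicate 1, 0.0719 without Patr1 replicate 2 and 0.110 with DESeq2.

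The other called members were both of the small subunit. RpS12, a protein needed for the elimination of Minute cells in fly cell competition, was at 203.9, 156.4 and 155.4 CPM in Patr1, against 215.4, 196.3 and 236.7 CPM in esgTS. The highest Patr1 library lay above the lowest esgTS library (log2 -0.34 ± 0.11 SE, edgeR adjusted p = 0.0250). RpS13, of the small subunit body, was at 190.3, 157.1 and 197.7 CPM in Patr1, against 221.2, 201.0 and 244.7 CPM in esgTS, without overlap (log2 -0.29 ± 0.10 SE, edgeR adjusted p = 0.0320). Neither call was stable to the loss of a library. The edgeR adjusted p of RpS12 was 0.124, 0.0872, 0.0543 and 0.103 without Patr1 replicates 2 and 3 and esgTS replicates 1 and 3. That of RpS13 was 0.170, 0.0678 and 0.132 without Patr1 replicate 2 and esgTS replicates 1 and 3, and 0.0662 with DESeq2.

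At the other end, no member passed the test. RpS15Ab was highest, at 60.6, 53.7 and 54.3 CPM in Patr1 against 54.2, 47.5 and 52.9 CPM in esgTS (log2 0.12 ± 0.11 SE, edgeR adjusted p = 0.368). RpS14a had a log2 fold change of 0.072 ± 0.11 SE (edgeR adjusted p = 0.628) and RpL41 one of 0.053 ± 0.13 SE (edgeR adjusted p = 0.767).

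In the authors' deposited table, 4 of 85 members were lower at an adjusted p under 0.05, with 16.4% of all its 9168 genes lower. That deposited table lists RpL24-like (log2 -0.43), RpS12 (-0.35), RpL3 (-0.27) and RpS13 (-0.31) below the threshold, and RpLP0-like at an adjusted p of 0.0725.

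The members moved together between libraries of the same genotype. Relative to the mean of the esgTS libraries, the median member stood at 0.14, -0.26 and -0.14 (log2) in Patr1 replicates 1, 2 and 3, and at 0.048, -0.15 and 0.10 in the esgTS replicates. All tested genes had medians between -0.0002 and 0.016 in the same libraries. In Patr1 replicate 1, 82 of 84 members lay above their mean over the Patr1 libraries, and in replicate 2 only 1 did. In esgTS replicate 2 only 1 of 84 lay above the esgTS mean, and in replicate 3 there were 83. Across all tested genes 47.6% to 53.7% lay above their genotype's mean in any library. The large and small subunits shifted by nearly the same amount, at 0.14 for each in Patr1 replicate 1, and -0.26 and -0.27 in Patr1 replicate 2.

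**Figure D3:**
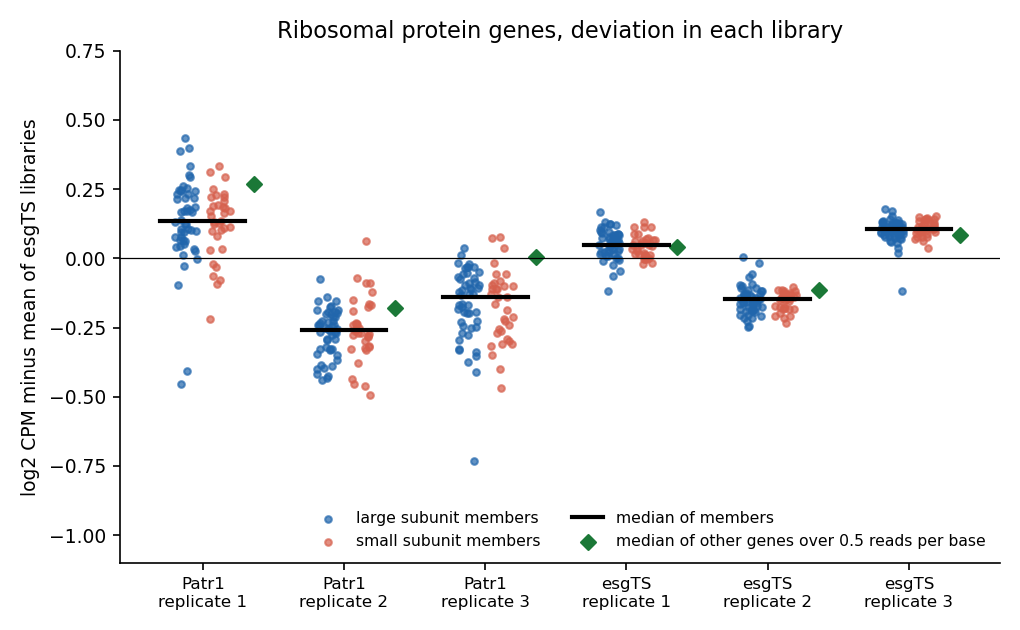
Deviation of each tested member (log2 CPM minus the mean of the esgTS libraries) in each of the 6 libraries, by subunit, with the median of all members as a bar and the median of the other 143 tested genes over 0.5 reads per base as a diamond. Members of both subunits sit high in Patr1 replicate 1 and low in Patr1 replicate 2 and esgTS replicate 2, and within each genotype the diamonds follow in the same order.

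Library totals, other densely covered genes and gene length are given beside these shifts. Patr1 replicate 1 had the fewest reads, 72.3% of the esgTS mean, while its members had 77.0% of the esgTS mean of member reads. Patr1 replicate 2 had 101.9% of the esgTS total and 85.0% of the member reads, and Patr1 replicate 3 had 84.0% and 71.3%. The other 143 tested genes over 0.5 reads per base had median deviations of 0.27, -0.18 and 0.0042 in Patr1 replicates 1, 2 and 3, and of 0.042, -0.11 and 0.084 in the esgTS replicates. Below 0.3 reads per base, other genes had class medians between -0.22 and 0.16 in the Patr1 libraries and between -0.036 and 0.036 in esgTS. The part of reads per base in the members' shift was not tested.

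Among the densest genes, those over 0.7 reads per base, 51 were members and 47 were not. The members there had a median log2 fold change of -0.087 with 0 called higher and 1 lower, and the others a median of 0.072 with 4 called higher and 5 lower. Without mitochondrial genome genes, the other 37 had a median of 0.029. Between 0.5 and 0.7 reads per base, 96 genes were not members, with a median of 0.016, 26 called higher and 10 lower. The 21 members there had a median of -0.096, with 0 called higher and 1 lower. Over all tested genes 25.5% were called higher and 23.9% lower. Reads of all members were 0.249, 0.246 and 0.225 times the reads of the other 143 dense genes in Patr1 replicates 1, 2 and 3, against 0.288, 0.280 and 0.295 times in the esgTS replicates. The Patr1 ratios lay below all esgTS ratios, though the members' shares of all reads overlapped between genotypes. Such a ratio can differ through either set of genes, and the part of each was not tested. The 143 genes, which include mitochondrial genome genes, took 9.85%, 7.81% and 8.65% of all reads in Patr1 replicates 1, 2 and 3. In the esgTS replicates they took 8.31%, 7.46% and 8.25%. Each library's scale was also set separately for each class of reads per base, from genes neither among the members nor on the mitochondrial genome. With those scales 14 of 84 members fell and 0 rose (edgeR, 25.7% of all genes lower), with a median log2 fold change of -0.13.

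The number of falling members depended on single libraries. Without Patr1 replicate 1, in which the members stood highest, 29 of 84 fell (edgeR, 14 of the large and 15 of the small subunit; 23.6% of all tested genes lower), with a median log2 fold change of -0.21. Without Patr1 replicate 2, in which they stood lowest, 1 fell (19.6% of all genes), with a median of -0.0062. Leaving out esgTS replicate 1, 2 or 3 gave 2, 8 and 2 falls (20%, 20.1% and 21.3% of all genes), and leaving out Patr1 replicate 3 gave 3 (21.6%). With DESeq2 2 members fell, RpL24-like and RpS12 (14.1% of all genes). With no filter on low counts 9 of 89 fell (15.9% of all genes), and with a replicate block 9 of 84 (24% of all genes). No member rose in any of these fits.

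With each library scaled to its own total of member reads, chi-square per degree of freedom between replicates averaged 2.16 in Patr1 and 0.925 in esgTS over the 84 members, with medians of 1.52 in Patr1 and 0.505 in esgTS. Independent counts would average 1, but it is not known whether these reads are independent, so the values describe the spread and test nothing. The value was above 5 for 8 members in Patr1 and for 3 in esgTS. Of the called members, RpS13 was at 6.63 in Patr1, RpLP0-like at 6.45, RpL24-like at 5.53 and RpS12 at 0.731. RpL22, a large subunit protein, had the highest value in both genotypes, 18.2 in Patr1 and 9.31 in esgTS. It was at 222.1, 141.7 and 112.1 CPM in the Patr1 replicates, against 202.2, 187.7 and 172.0 CPM in esgTS (log2 -0.25 ± 0.18 SE, edgeR adjusted p = 0.264). In both genotypes replicate 3 was the lowest. Of the exon bases of RpL22, 34.3% overlap lncRNA:CR42491 on the same strand. RpL23A has a similar overlap, 31.9% with Uhg7, and its chi-square values were 1.40 in Patr1 and 1.16 in esgTS. The part of such overlaps in the spread was not tested.

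By the range of log2 CPM between replicates of a genotype, not scaled to member reads, RpL22 was widest at 0.98. RpLP2, an acidic protein of the ribosomal stalk, followed at 0.71, and RpL21, of the large subunit, at 0.66. RpLP2 was at 328.0, 209.5 and 199.95 CPM in Patr1, against 260.9, 214.6 and 255.4 CPM in esgTS (log2 0.0048 ± 0.16 SE, edgeR adjusted p = 0.983). RpL21 was at 307.3, 194.1 and 218.1 CPM in Patr1, against 253.0, 201.3 and 248.2 CPM in esgTS (log2 0.026 ± 0.15 SE, edgeR adjusted p = 0.900). For both genes Patr1 replicate 1 stood above every other library. RpL24-like and RpLP0-like did not share that rise, since their Patr1 values were level or lowest in replicate 1.

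Paralogues, taken here as genes whose symbols differ only in a final a, b or -like, were unevenly used in most families. By that rule RpL24-like and RpLP0-like are included, though they resemble assembly factors. Of 13 families with more than 1 gene, 5 pairs had both genes tested. In the other 8 families 1 gene carried nearly all counted reads, namely RpL7, RpL10Ab, RpL22, RpL37a, RpS5a, RpS10b, RpS19a and RpS28b. Their partners RpL7-like, RpL10Aa, RpL22-like and RpS28a had 0 reads in all 6 libraries. For RpL7-like, 98.8% of the exon bases overlap CG34164 on the same strand. The sources name no rule for reads shared by overlapping genes, so its count of 0 may not show its level. The others had a few reads, with 14 in the 3 Patr1 and 6 in the 3 esgTS libraries for RpS19b, 4 and 5 for RpS5b, 4 and 1 for RpL37b, 2 and 0 for RpS10a, and 1 and 1 for RpS28-like. RpS5b, RpS19b, RpS10a and RpL22-like are known as gonad-enriched copies in the fly. A count of 0 allows up to 3 reads, which was 1.03 to 1.51 CPM in a Patr1 library and 0.997 to 1.15 CPM in an esgTS library, for counting error only.

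RpL24-like and RpLP0-like had lower ratios to their relatives in every Patr1 library than in any esgTS library, though no difference of ratios passed its test. Per base of gene length, RpL24-like had 52.4%, 65.9% and 60.3% of the level of RpL24 in Patr1 replicates 1, 2 and 3, against 71.3%, 72.8% and 76.4% in the esgTS replicates. The difference in log2 ratio, Patr1 minus esgTS, was -0.31 (exact 2-sided permutation test, p = 0.1, which is the smallest that 3 against 3 allows, and 0.167 adjusted over 5 pairs). RpLP0-like had 14.2%, 20.9% and 21.45% of the level of RpLP0 in Patr1, against 21.54%, 24.9% and 22.2% in esgTS, a difference of -0.30 in log2 ratio (exact permutation p = 0.1, adjusted 0.167). Without Patr1 replicate 1, where RpLP0-like was lowest, that difference was -0.11. RpL24 itself had a log2 fold change of -0.095 ± 0.097 SE (edgeR adjusted p = 0.444) and RpLP0 one of -0.021 ± 0.12 SE (edgeR adjusted p = 0.899). Of RpL24, 21.6% of the exon bases overlap CG7099 on the other strand.

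The tandem copies RpS14a and RpS14b, which encode the same protein, differed in their ratio by a similar amount. RpS14a was at 309.0, 233.4 and 235.5 RPKM in Patr1, against 247.1, 222.7 and 268.1 RPKM in esgTS. RpS14b was at 257.8, 219.0 and 232.9 RPKM in Patr1, against 283.8, 250.9 and 292.5 RPKM in esgTS (log2 -0.23 ± 0.090 SE, edgeR adjusted p = 0.0555). RpS14a thus stood at 119.8%, 106.5% and 101.1% of RpS14b in Patr1, against 87.0%, 88.7% and 91.6% in esgTS. The groups did not overlap, with a difference of 0.29 in log2 ratio (exact permutation p = 0.1, adjusted 0.167). The sources name no rule for reads that match near-identical copies, so the split between these 2 genes is uncertain.

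The ratios of the remaining pairs overlapped between genotypes. RpL34a had 75.9%, 84.3% and 85.6% of RpL34b in Patr1, against 68.1%, 80.4% and 74.4% in esgTS (exact permutation p = 0.2, adjusted 0.25). RpS15Ab had 19.8%, 25.8% and 24.02% of RpS15Aa in Patr1, against 19.9%, 22.1% and 20.1% in esgTS (exact permutation p = 0.4, adjusted 0.4). The last pair is also made of very similar copies.

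**Figure D4:**
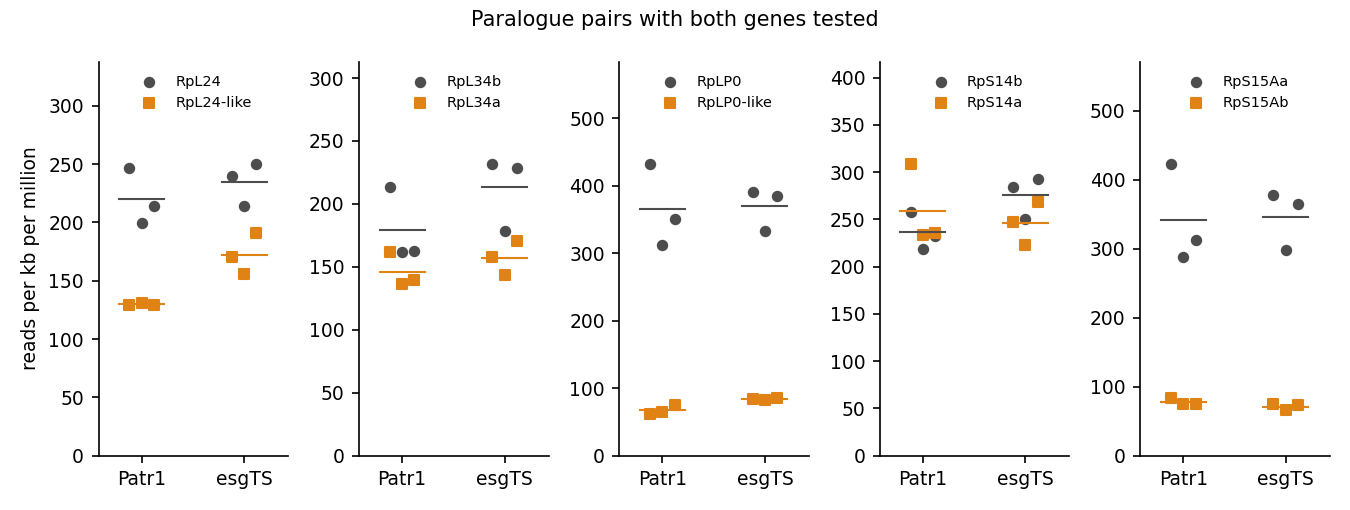
Reads per kilobase of gene length, scaled to library size (RPKM), in each library for the 5 paralogue pairs with both genes tested, with Patr1 to the left of esgTS and the mean of each genotype as a line. RpL24-like is at 129.1 to 131.1 in the 3 Patr1 libraries and at 155.6 to 191.2 in the 3 esgTS libraries.

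Of 72 tested genes for mitochondrial ribosomal proteins, which build the separate ribosome of that organelle, 41 rose and 0 fell (edgeR, beside 25.5% and 23.9% of all tested genes), with a median log2 fold change of 0.35. At an unadjusted p under 0.05, 49 were higher and 0 lower, beside 28.6% and 26.7% of all tested genes. With DESeq2 11 of them rose, a share close to the 15.9% of all genes that rose in that fit. Without esgTS replicate 1 there were 21 rises, beside 21.7% of all tested genes. Those with the smallest p were mRpS34, at 57.1 ± 3.63 CPM in Patr1 and 34.3 ± 3.80 CPM in esgTS, and mRpL40, at 65.3 ± 7.91 CPM in Patr1 and 40.2 ± 2.80 CPM in esgTS (SD, n = 3 each). Their log2 fold changes were 0.74 ± 0.12 and 0.70 ± 0.12 SE (edgeR adjusted p = 3.09e-04 and 4.01e-04). The difference between the mitochondrial and the cytosolic genes was not tested as such.

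Of 46 tested ribosome assembly genes 4 rose and 8 fell, which is 8.70% and 17.4%, both below the 25.5% and 23.9% of all tested genes. Their median log2 fold change was -0.038, and the single genes below are given as values, not as a pattern of the list. The falls numbered 5 with DESeq2 (14.1% of all genes), 5 without Patr1 replicate 2 (19.6%) and 4 without esgTS replicate 1 (20%). Fib, the rRNA methyltransferase fibrillarin, was at 142.3 ± 9.82 CPM in Patr1 and 195.3 ± 14.7 CPM in esgTS (log2 -0.46 ± 0.086 SE, edgeR adjusted p = 8.40e-04). The snoRNP and nucleolar genes nop5, Nop60B and Nopp140 also fell, with Non1, Nop17l, bys and Tif-IA. RIOK1, a kinase of small subunit maturation, was at 126.0 ± 13.0 CPM in Patr1 and 88.2 ± 7.33 CPM in esgTS (log2 0.52 ± 0.099 SE, edgeR adjusted p = 9.42e-04). eIF6, which keeps immature large subunits from joining small ones, Surf6 and CG3071 rose as well.

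Of 15 tested genes for elongation and ribosome-associated factors, 0 rose and 3 fell (20%, beside 23.9% of all tested genes), with a median log2 fold change of -0.18. At an unadjusted p under 0.05, 0 were higher and 5 lower, beside 28.6% and 26.7% of all tested genes, and DESeq2 called 0 higher and 2 lower. pix, the ribosome recycling factor ABCE1, was at 316.6 ± 18.8 CPM in Patr1 and 444.3 ± 39.5 CPM in esgTS (log2 -0.49 ± 0.091 SE, edgeR adjusted p = 7.75e-04). Rack1, a scaffold on the small subunit, was at 401.8 ± 52.6 CPM in Patr1 and 500.0 ± 50.4 CPM in esgTS (log2 -0.32 ± 0.11 SE, edgeR adjusted p = 0.0293), and it did not pass without Patr1 replicate 2 or 3 or esgTS replicate 1 or 3 (edgeR adjusted p = 0.0555 to 0.127). Dbp80, a DEAD-box RNA helicase gene, fell by 0.21 (log2, edgeR adjusted p = 0.0411). Its place in this list is uncertain, as is that of sqd, which was not called. The count of falls was 1 without Patr1 replicate 3 or esgTS replicate 3, and 5 without Patr1 replicate 1. The elongation factor genes eEF1alpha1 and eEF2 were at log2 fold changes of 0.072 ± 0.13 and 0.021 ± 0.14 SE (edgeR adjusted p = 0.671 and 0.915).

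Among 16 tested genes listed as regulators of ribosomal protein genes 5 rose and 4 fell (31.3% and 25%), near the 25.5% and 23.9% of all tested genes, with a median log2 fold change of 0.014. The place of r and mxc in that list is uncertain, and neither was called. Without esgTS replicate 1, 3 rose (21.7% of all genes). The growth kinase gene Tor was at 519.7 ± 24.1 CPM in Patr1 and 285.4 ± 5.79 CPM in esgTS (log2 0.86 ± 0.079 SE, edgeR adjusted p = 2.58e-06). foxo, which is held back by insulin signalling, was at 234.2 ± 10.6 CPM in Patr1 and 385.5 ± 16.1 CPM in esgTS (log2 -0.72 ± 0.079 SE, edgeR adjusted p = 1.25e-05). Myc, the activator of ribosome synthesis genes, rose by log2 0.54 ± 0.11 SE (edgeR adjusted p = 0.00176), and Trf2, which serves ribosomal protein promoters in the fly, by 0.37 ± 0.0996 SE (edgeR adjusted p = 0.00849). Xrp1 and its partner Irbp18, which act in Minute cells, rose by 0.34 and 0.96, and Max, Mnt and raptor fell by 0.50, 0.53 and 0.33 on the log2 scale.

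**Figure D5:**
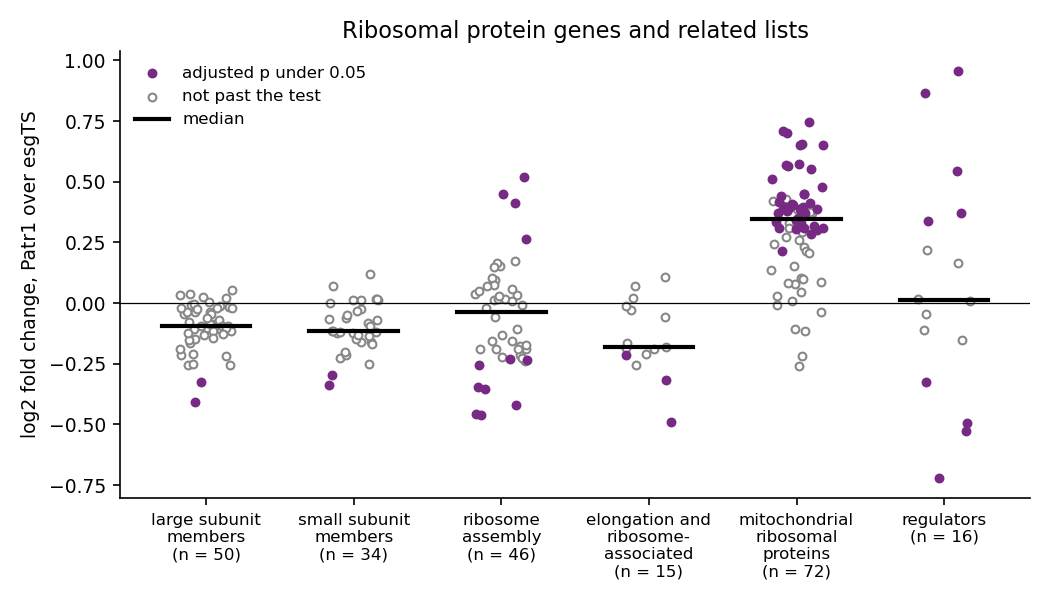
Log2 fold change (Patr1 over esgTS) of each tested gene of the large and small subunits and of 4 related lists, filled where the edgeR adjusted p is under 0.05, with the median as a bar. The mitochondrial ribosomal protein genes centre on 0.35, and the cytosolic large and small subunits on -0.095 and -0.11.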

How the data were processed

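Every test used the authors' deposited count table, which holds whole reads and a length in bases for each gene. Tools listed in the submitters' processing notes are STAR 2.7.3a, Subread 2.0.0, featureCounts, cutadapt 2.9, DESeq2 and SAMtools 1.10, with no settings. No source used here states the genome build, the strand setting or how duplicate and multiply mapped reads were treated. The deposited comparison table holds the authors' log2 fold changes and adjusted p-values, per the file headers.

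Libraries were grouped by genotype as titled. The quasi-likelihood test of edgeR 4.0.16 (R 4.3.3) ran over 7927 genes passing its default filter, with TMM factors and a threshold of 0.05 on the Benjamini-Hochberg adjusted p. Library sizes for CPM were scaled by TMM, and log2 CPM used a prior count of 2. The row with no gene name was left out (46, 81 and 70 reads in Patr1 and 0, 1 and 0 in esgTS). Paralogue ratios use counts plus 0.5 per base. P-values measure the spread between these libraries, since the labels do not say that replicates were independent collections. The test was tested on simulated data with 200 changed genes. The common biological coefficient of variation was 8.47%.

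DESeq2 1.42.0, other scalings and filters, a replicate block and leaving out each library were the alternatives. Overlaps come from the BDGP6 annotation, which named 91 of the 93 genes, without its coordinates. Members and lists were chosen with earlier results of these data known. Genes named by rule were the called members, the 3 largest changes each way, the 3 highest and lowest per length, paralogue families, the 3 widest replicate spreads, and the 2 smallest p per related list. One gene that this rule names is not reported here. Other genes were picked after their values were seen.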

Additional observations from a re-analysis of the deposited data

How the results depend on the processing

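Counts of falling members, 4 of 84 as reported, were 2 with DESeq2 (14.1% of all genes), 9 with no low-count filter (15.9%) and 9 with a replicate block (24%). There were 14 with scales set by class of reads per base (25.7%) and 15 with that and the block together (2026 of 7927 genes). Without the like-named genes and the lower member of each family 2 fell (23.9% of all genes). The counts ran from 1 to 29 with 1 library left out (19.6% to 23.6% of all genes lower). The scales by class of reads per base were chosen after seeing the data. The large subunit's median turned to 0.0044 without Patr1 replicate 2. The medians of members stayed between -0.21 and -0.0062 in all these fits. Ribosome assembly falls, 8 of 46 as reported, were 5 with DESeq2 (14.1% of all genes) and 4 to 9 with 1 library left out (19.6% to 23.6%). Elongation and ribosome-associated falls, 3 of 15 as reported, were 5 on library totals (2012 of all 7927 genes) and 5 with the block (24%). They were 9 with scales by class (25.7% of all genes) and 9 with both (2026 of 7927). With 1 library left out they were 1 to 5 (19.6% to 23.6%), and rises were 1 with no filter (2411 of all 13665 genes). Mitochondrial rises, 41 of 72 as reported, were 11 with DESeq2 (15.9% of all genes). With 1 library left out they were 21 to 44, and regulators' rises, 5 of 16 as reported, were 3 to 5. Of all genes 1675 to 2072 rose in those fits.

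The replicate block left 4 of the 4 called members called and added 5, but same-numbered libraries of the genotypes deviated together with correlations of only 0.05, 0.20 and -0.04, so the numbers were not taken as pairs.

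Log2 fold changes near 0 changed sign in 9 of 84 members on library totals, 9 with scales by class, 9 with the block added to those, 2 with the block alone, 1 each with DESeq2 size factors, no filter and a minimum of 10 counts, and 9 to 27 with 1 library left out. The cause was not tested, and values follow for genes named by rule. On library totals RpL21 was at -0.011, RpLP2 at -0.031 and RpS19a at -0.020. With scales by class RpL21 was at -0.0045, RpLP2 at -0.028 and RpS19a at -0.039, and with the block added they were at -0.0054, -0.035 and -0.040. RpLP2 was at -4.9e-05 with DESeq2 size factors, -0.0047 with no filter and -0.012 with the block. With 1 library left out, log2 fold changes ran from -0.18 to 0.17 for RpL21, -0.17 to 0.094 for RpL37a, -0.12 to 0.16 for RpL41, -0.23 to 0.018 for RpL7, -0.15 to 0.087 for RpLP0, -0.24 to 0.13 for RpLP2, -0.23 to 0.020 for RpS10b, -0.063 to 0.15 for RpS14a, -0.20 to 0.089 for RpS15Aa, -0.092 to 0.074 for RpS19a, -0.17 to 0.028 for RpS28b and -0.089 to 0.080 for esg.

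All 5 paralogue differences kept their sign with any library left out, where the smallest exact permutation p is 0.2. Tested members averaged 139.7 to 1419 reads per library, which sets the counting error behind each value.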
